A study of Mus musculus with 6 samples.

Results

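To describe how breast cancer cells that outlived chemotherapy express the genes that restrain ERK signalling, 10 feedback genes were examined on the arrays of methotrexate-selected MR13 cells and parental 4T1 cells. The genes are the dual-specificity phosphatases Dusp1, Dusp2, Dusp4, Dusp5 and Dusp6, the Sprouty genes Spry1, Spry2 and Spry4, and the SPRED genes Spred1 and Spred2. They were chosen by symbol, with earlier results of these data known. Each is represented by its brightest probe set (mean over the 6 arrays), and all 10 were measured among 19933 genes in all. 4T1 cells derive from a BALB/c mammary carcinoma, and methotrexate (MTX) is a drug that blocks folate metabolism. The 3 WTR- arrays held RNA of untreated 4T1 cells and the 3 MR13 arrays RNA of cells selected with MTX, for which the sample labels give 13 µg/ml and up to 2 weeks. Another concentration and a longer period stand in the study's text, which adds that survivors went back to normal medium, and whether the drug was still there at RNA extraction is not in the labels. Both groups grew in culture from the same parental line. They differ by the selection and by the culture and recovery that came with it, which cannot be told apart here. MR13 is 1 selected line, and its arrays come from triplicate wells per the labels (biological replicates in the study's text), so p values measure the spread between these samples and not between independent selections.

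ERK is the last kinase of the RAS-RAF-MEK-ERK cascade, which carries growth factor signals to the nucleus. ERK activity induces several of its own inhibitors. Dual-specificity phosphatases remove the activating phosphates from MAP kinases in the nucleus or the cytoplasm. Sprouty and SPRED proteins act upstream of ERK, Sproutys on signalling from receptors to RAF, and SPREDs by bringing the RAS inactivator neurofibromin to the membrane. In tumor cells such inhibitors serve as readouts of ERK signalling and also limit it.

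The 10 genes split evenly by direction. By limma, at an adjusted p under 0.05 over all genes, 4 were higher in MR13 (Dusp1, Dusp4, Spred1 and Spred2), 4 were lower (Dusp5, Spry1, Spry2 and Spry4), and Dusp2 and Dusp6 did not pass. All 3 Sproutys of the set fell and both of its SPREDs rose. Over all genes 37.6% were called, 17.0% higher and 20.6% lower, so 8 of 10 is above this share while neither direction prevailed. This share is not matched for brightness. With the dimmest 30% of genes left out 7640 were called, against 7497 of all 19933 genes. More calls among fewer genes mean that the share called was higher than 37.6% among the brighter genes. Dusp2, the dimmest member, was at percentile 42.4 of all genes in WTR-. The 3 values of each group did not overlap for 9 members, against 47.4% of all genes. Among the members 6 were called with a difference of at least 1.5-fold, against 11.0% of all genes, and 2 differed at least 2-fold (4.06% of genes), Dusp1 upwards (1.96%) and Spry1 downwards (2.10%). The members' median log2 difference was 0.02, while the median of their absolute differences was 0.63, and over all genes these medians were 0.01 and 0.13. As the members were chosen with earlier results of these data known, these comparisons with all genes are descriptions and not tests. The arrays measured RNA of whole cultures, in which fewer cells expressing a gene and less RNA per cell cannot be told apart.

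**Figure D1:**
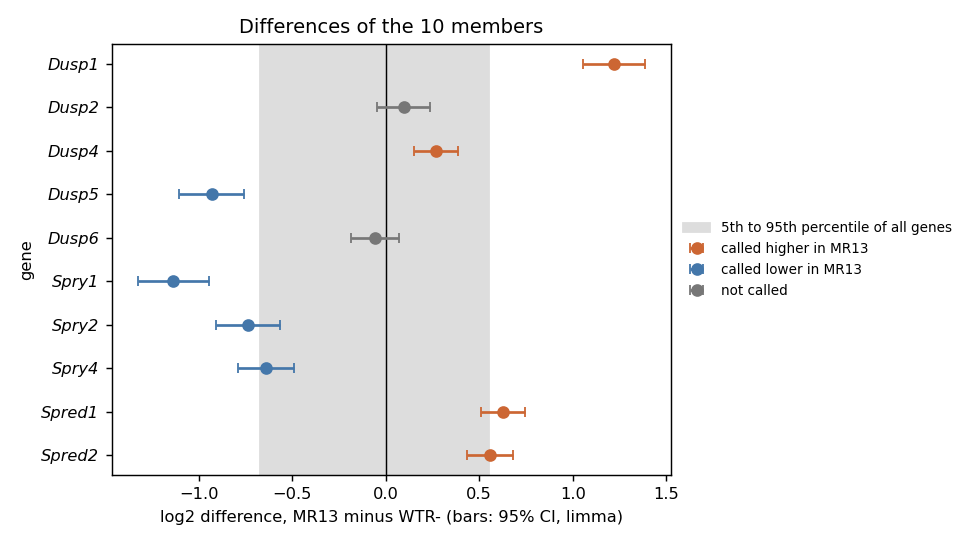
Differences between MR13 and WTR- in log2 signal (x axis, positive where MR13 was higher) of the 10 ERK feedback genes (y axis). Points are limma estimates, bars are 95% CIs, colours give the call, and the grey band spans the 5th to the 95th percentile of all genes (-0.67 to 0.55). The Sproutys lie between -1.14 and -0.64 and the SPREDs at 0.56 and 0.63.

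Values are deposited log2 signals, on which a difference of 1 is a 2-fold change. Array medians lay between 6.57 and 6.62. The epithelial keratin genes Krt8 (13.41 in WTR- and 13.53 in MR13) and Krt18 (12.99 and 12.80) were well above these medians in both groups, although Krt18 fell by 0.19, whereas the epithelial markers Krt19, Epcam and Cdh1 fell by 2.23, 4.30 and 3.24. The sum of these 5 epithelial log2 values lay between 58.9 and 59.3 in WTR- and between 49.1 and 49.7 in MR13. Of 4 fibroblast markers Pdgfra (log2 difference 1.82) and Dcn (1.70) rose, and the sum of the 4 log2 values lay between 26.2 and 26.6 in WTR- and between 29.7 and 30.4 in MR13. Of 5 leukocyte markers Cd68 rose by 0.35, with sums from 29.7 to 30.1 and from 30.3 to 30.4, and Ptprc, which defines leukocytes, was at 5.17 and 5.22. None of 3 endothelial markers was called (sums from 15.4 to 15.8 and from 15.6 to 15.8). The part of these differences in the results was not tested.

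Among the nuclear phosphatases, which switch off MAP kinases after they have entered the nucleus, Dusp1 and Dusp5 moved in opposite directions. Dusp1 acts on p38 and JNK as well as ERK, and Dusp5 is specific for ERK. Their promoters were compared first, because the letters recognised by inducible factors differ between them. The stretches below are from RefSeq (GRCm38.p6), positions count back from the annotated transcription start, and capitals mark a full cyclic AMP response element, TGACGTCA, in Dusp1 (minus strand, chr17:26508573-26508672) and 2 CArG boxes, the element bound by serum response factor, in Dusp5 (plus strand, chr19:53529025-53529124).
Dusp1: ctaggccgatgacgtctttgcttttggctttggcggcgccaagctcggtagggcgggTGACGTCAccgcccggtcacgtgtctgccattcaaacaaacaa
Dusp5: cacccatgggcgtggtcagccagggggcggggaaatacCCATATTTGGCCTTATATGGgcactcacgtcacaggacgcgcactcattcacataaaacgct

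The element in Dusp1 spans positions -143 to -136. The CArG boxes in Dusp5 stand side by side at -82 to -73 and -72 to -63, without overlap. Promoter windows of 300 bases, 250 before and 50 after the start, matched 8 of the 10 members (not Dusp4 and Spry4). In these windows 5 motifs were searched on both strands. They were TGACGTCA, the AP-1 element TGANTCA, the ETS element CCGGAAGT, the STAT element TTCCNGGAA and the CArG box. Dusp1 was the only member window with TGACGTCA, found in 1.79% of all 32851 windows, and Dusp5 the only one with a CArG box, found in 1.63%. The AP-1, ETS and STAT letters, present in 7.81%, 3.89% and 1.15% of all windows, occurred in none of the 8. These matches describe the letters and were not tested for binding.

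Dusp1 (probe set 10449284) was at 9.55, 9.41 and 9.50 in WTR- and at 10.60, 10.84 and 10.69 in MR13. All MR13 arrays were higher, and the nearest values of the groups lay 1.05 apart. The means of 9.49 ± 0.07 and 10.71 ± 0.12 (SD, n = 3 each) differ 2.33-fold (limma adjusted p = 2.32e-06), the largest difference among the members.

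Dusp5 (probe set 10463945) was at 9.02, 9.01 and 8.89 in WTR- and at 7.95, 8.20 and 7.99 in MR13. Every MR13 array was lower than every WTR- array. Dusp5 fell by 0.93 on the log2 scale (SE 0.08, 1.90-fold lower, limma adjusted p = 1.62e-05).

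Dusp4, a nuclear phosphatase of ERK and JNK, rose by a smaller amount. Its WTR- values were 10.23, 10.22 and 10.19 and its MR13 values 10.43, 10.52 and 10.51. The groups were apart, and the difference was 1.20-fold (log2 difference 0.27, SE 0.05, limma adjusted p = 0.0028). Dusp2, a nuclear phosphatase best known from activated lymphocytes, was dim, with means of 6.26 ± 0.08 and 6.36 ± 0.05 (SD, n = 3 each) that lie below the array medians. Its lowest MR13 value was only 0.01 above its highest WTR- value, and it did not pass (log2 difference 0.10, 95% CI -0.04 to 0.23, limma adjusted p = 0.28). Background is part of so dim a signal.

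Dusp6, the cytoplasmic phosphatase specific for ERK and a common readout of the pathway, was the one member whose groups overlapped. It was at 11.80, 11.72 and 11.73 in WTR- and at 11.63, 11.76 and 11.70 in MR13. The difference was -0.06 (95% CI -0.18 to 0.07, limma adjusted p = 0.50). Thus among 5 phosphatases 2 rose, 1 fell and 2 did not pass.

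**Figure D2:**
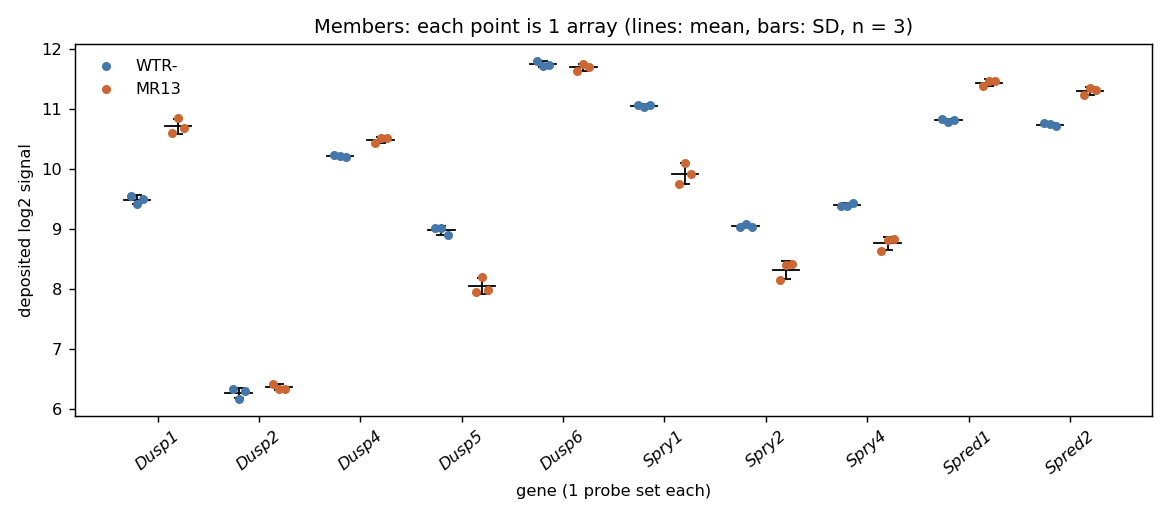
Deposited log2 signals (y axis) of each of the 10 genes (x axis), with 1 point per array; lines are means and bars are SDs. The groups overlap for Dusp6, nearly touch for Dusp2 (means 6.26 and 6.36) and are apart for the others.

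Sproutys and SPREDs share a cysteine-rich domain but went in opposite directions. Stretches of 100 bases before the annotated start of Spry1 (plus strand, chr3:37639847-37639946) and Spred1 (plus strand, chr2:117120971-117121070) from RefSeq (GRCm38.p6) are shown for this pair, with capitals at CG dinucleotides.
Spry1: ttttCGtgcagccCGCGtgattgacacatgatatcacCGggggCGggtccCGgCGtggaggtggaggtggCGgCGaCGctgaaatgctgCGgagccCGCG
Spred1: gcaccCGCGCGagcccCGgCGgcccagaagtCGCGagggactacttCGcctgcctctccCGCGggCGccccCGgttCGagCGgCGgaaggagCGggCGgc

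The stretches hold 13 and 17 CG dinucleotides. Over the whole 300-base windows, Spry1 had 29 and Spred1 40, against a median of 7 over all windows. The 8 members with a window had between 17 and 40, and their GC content lay between 57.0% and 72.3%, above the median of 52.7%. Values above these medians were thus common to members that rose, fell and did not pass. The lowest of the 8, Spred2, was only at percentile 63.5 of all windows for GC content and 70.3 for CG count.

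Spry1 (probe set 10491721) fell the most of the 10 genes. It was at 11.07, 11.03 and 11.07 in WTR- and at 9.75, 10.10 and 9.92 in MR13. The closest values of the groups were 0.93 apart, and the mean was 2.20-fold lower in MR13 (log2 difference -1.14, SE 0.08, limma adjusted p = 8.49e-06).

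Spry2, which binds the adaptor GRB2 and the ubiquitin ligase CBL, was at 9.04, 9.08 and 9.03 in WTR- and at 8.15, 8.39 and 8.41 in MR13. It was 1.66-fold lower (-0.73, SE 0.07, limma adjusted p = 6.29e-05), with no overlap between groups. Spry4, which restrains RAF activation, was at 9.38, 9.37 and 9.44 in WTR- and at 8.63, 8.82 and 8.82 in MR13. It was 1.56-fold lower (-0.64, SE 0.07, limma adjusted p = 6.28e-05), again without overlap. The CIs of Spry2 (-0.91 to -0.56) and Spry4 (-0.79 to -0.49) overlap each other, and the one of Spry1 (-1.33 to -0.94) lies below both. The difference between Sproutys was not tested.

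Spred1 (probe set 10474671) was at 10.83, 10.79 and 10.82 in WTR- and at 11.38, 11.47 and 11.47 in MR13. Its groups were 0.55 apart, and it was 1.55-fold higher (0.63, SE 0.05, limma adjusted p = 1.8e-05). Spred2 was measured by a pair of probe sets. The brighter one (10374455) was at 10.77, 10.74 and 10.71 in WTR- and at 11.24, 11.35 and 11.31 in MR13, 1.47-fold higher (0.56, SE 0.05, limma adjusted p = 4.45e-05). The other (10374464) was at 10.03, 9.92 and 9.91 in WTR- and at 10.50, 10.64 and 10.51 in MR13. It rose by 0.59 (SE 0.06, limma adjusted p = 0.00017 over all probe sets), so both Spred2 probe sets moved alike. The remaining members of these families, Spry3 (4.29 and 4.28, limma adjusted p = 0.96) and Spred3 (8.32 and 8.34, limma adjusted p = 0.87), did not pass, and Spry3 was dim in both groups.

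Members varied more in MR13 than in WTR-. The SD was larger in MR13 for 9 of 10 members and for 51.6% of all genes. MR13 replicate 1 was the lowest of the MR13 arrays for 9 of 10 members, Dusp2 being the exception, and for 45.8% of all genes. Members that rose and members that fell shared this order, so in this array rises were smaller and falls larger. Without MR13 replicate 1, Dusp1 differed by 1.28, Spry1 by -1.05 and Spry4 by -0.58, and all 8 calls were kept.

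**Figure D3:**
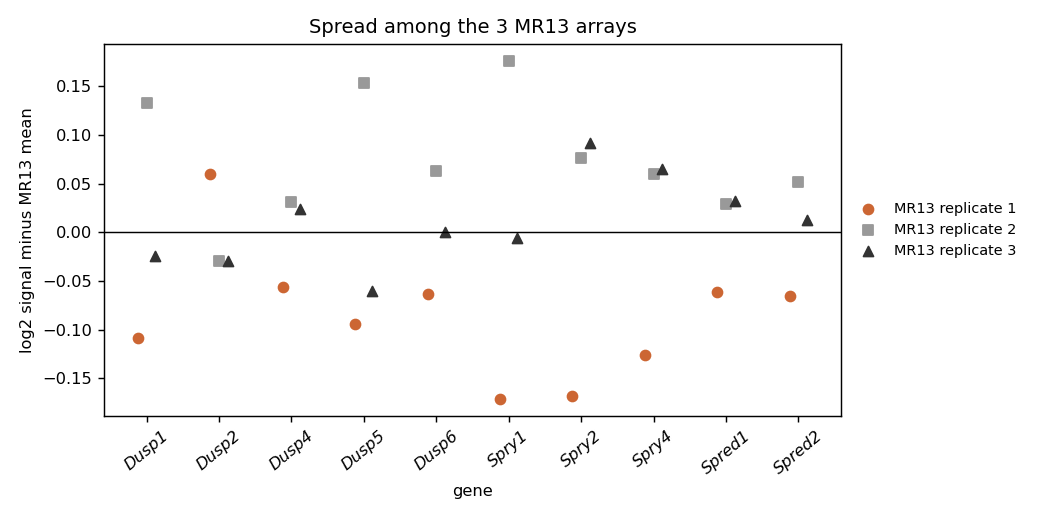
Deviation of each MR13 array from the mean of the 3 MR13 arrays (y axis, log2 signal) for each of the 10 genes (x axis); symbols are replicates. Replicate 1 lies lowest for 9 of 10 genes, between -0.17 and -0.06, and highest for Dusp2 (0.06).

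The other MAP kinase phosphatases, Dusp7, Dusp8, Dusp9, Dusp10 and Dusp16, were mostly lower. Dusp7 (-0.62) and Dusp9 (-0.60), the cytoplasmic relatives of Dusp6, fell, as did Dusp8 (-0.67), which acts on JNK and p38. Dusp10, of the same substrates, rose by 0.27, and Dusp16, a JNK phosphatase, differed by -0.15 (limma adjusted p = 0.052). The median was -0.60, and 80% were called, against 37.6% of all genes. Of 14 atypical dual-specificity phosphatases, most of which lack the MAP kinase-binding domain, 1 rose (Dusp27, 0.80) and 4 fell, among them Dusp3 (-0.70) and Dusp12 (-0.63), with Dusp11 (-0.29) and Dusp14 (-0.45) named after their values were seen. Dusp12 had a second, dimmer probe set that did not pass (-0.0062, limma adjusted p = 0.95 over all probe sets), and the mean of both differed by -0.32. The median of the 14 was -0.04, and 35.7% were called, near the 37.6% of all genes. Dusp27 was dim, at 5.35 in WTR- and 6.15 in MR13, below the array medians, so background is part of its signal.

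Other proteins that restrain the pathway went both ways. Of 13, 4 rose and 3 fell (53.8% called, against 37.6% of all genes), with a median of 0.02. The ubiquitin ligase gene Cblb rose by 0.77 and Nf1, which encodes the neurofibromin that SPREDs recruit, by 0.35. Rasa1, another RAS inactivator, fell by 0.64. Named after their values were seen, Dab2ip (0.46) and Lrig1 (0.25) rose, and Rasal2 (-0.41) and Pebp1 (-0.27), a RAF inhibitor, fell. Errfi1, an inhibitor of EGF receptors (-0.07, limma adjusted p = 0.35), and Il17rd, an inhibitor of FGF signalling (0.07, limma adjusted p = 0.53), did not pass.

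**Figure D4:**
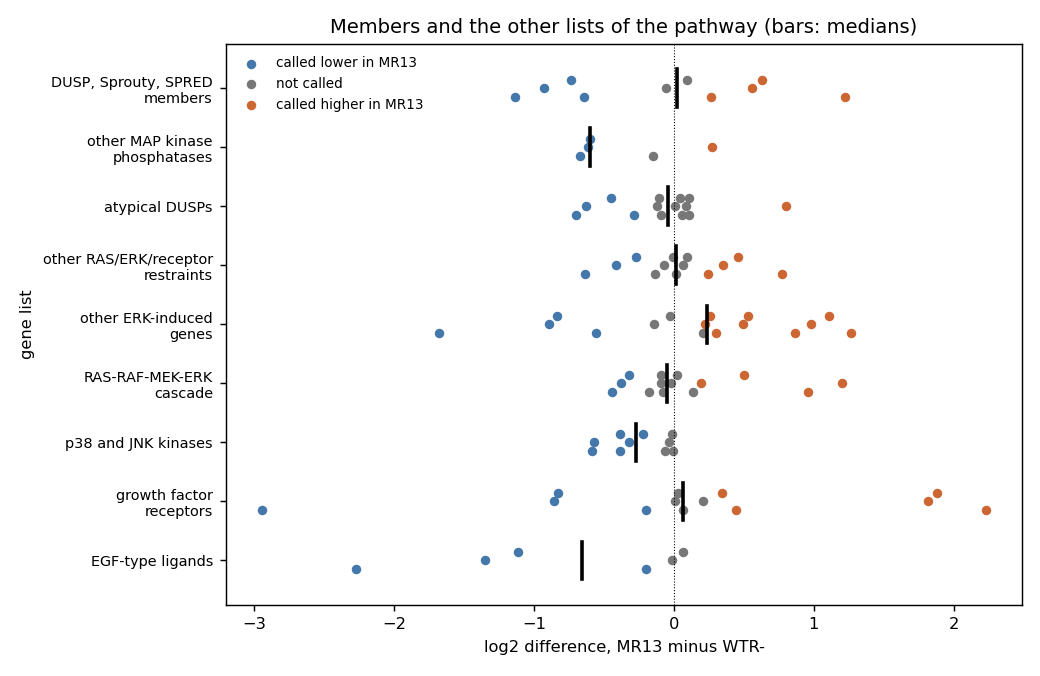
Differences between MR13 and WTR- in log2 signal (x axis, positive where MR13 was higher) of the measured genes of 9 lists (y axis); each point is a gene coloured by its limma call, and vertical bars mark list medians. The 10 feedback genes spread from -1.14 to 1.22 around a median of 0.02, and the EGF-type ligands have the lowest median of these lists (-0.66).

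Among 16 other genes that ERK is known to induce, 9 rose, 4 fell and 3 did not pass (81.2% called, median 0.24). Over all genes 37.6% were called, 17.0% higher and 20.6% lower. Immediate-early transcription factors were among those that rose. Egr1 was at 7.60, 7.85 and 7.74 in WTR- and at 8.96, 9.13 and 8.89 in MR13, 2.40-fold higher (limma adjusted p = 4.07e-06). Egr2 rose by 1.11 and Fos, a subunit of AP-1, by 0.86. The ETS factor Etv1 rose by 0.98, Fosl1, another AP-1 subunit, by 0.49 and Phlda1 by 0.30. Ccnd1, the G1 cyclin D1, rose by 0.26. The ETS factors used together with Dusp6 as readouts of ERK differed little, Etv4 by 0.22 (limma adjusted p = 0.021) and Etv5 by -0.03 (limma adjusted p = 0.80), and leaving out WTR- replicate 1 or 3, or MR13 replicate 2 or 3, ended the call of Etv4 (limma adjusted p from 0.053 to 0.076). A second probe set of Etv5 was lower in MR13 (-0.22, limma adjusted p = 0.0095 over all probe sets), so its probe sets disagree. The ephrin receptor genes Epha4 and Epha2 fell by 1.68 and 0.90. The others that fell were Myc (-0.84) and Ier2 (-0.56), both named with their values known.

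**Figure D5:**
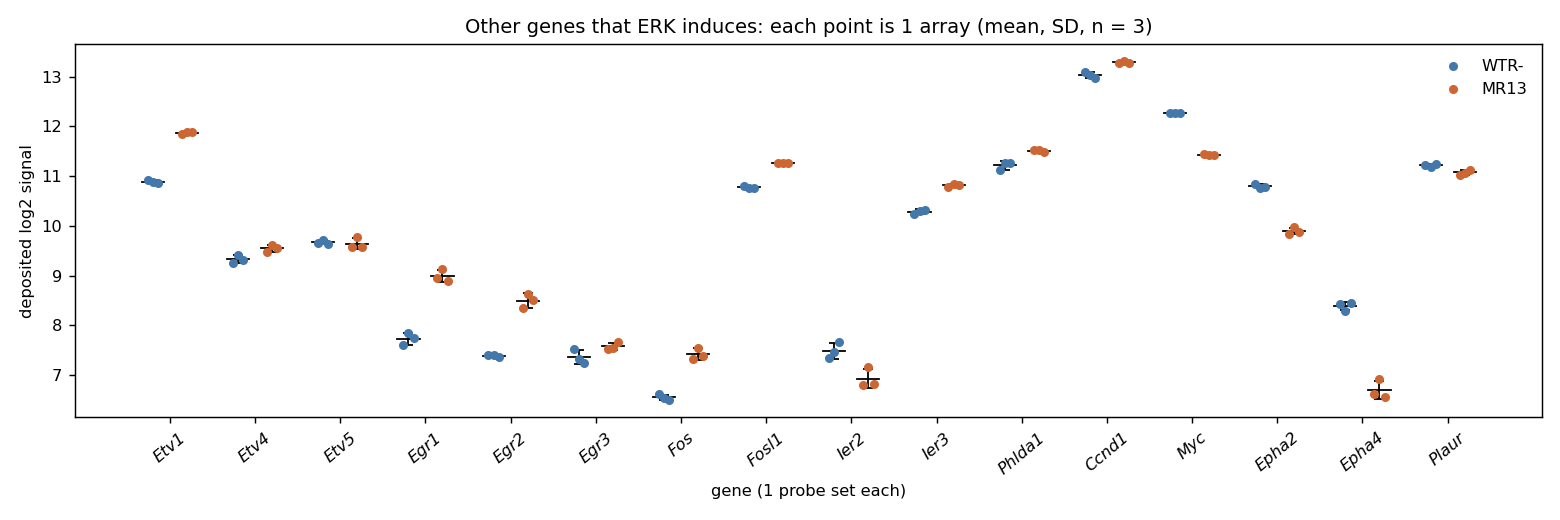
Deposited log2 signals (y axis) of 16 other genes that ERK induces (x axis), with 1 point per array; lines are means and bars are SDs. Egr1, Egr2, Etv1 and Fos are higher and Epha4, Epha2 and Myc lower in MR13, while Etv5 overlaps.

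Of the 14 measured genes of the RAS-RAF-MEK-ERK cascade, 4 rose, 3 fell and 7 did not pass (median -0.05). In this list 50% were called, against 37.6% of all genes. The scaffold gene Ksr1, which holds RAF, MEK and ERK together, rose by 1.20 and Rps6ka3, an ERK-activated kinase, by 0.96. Named after their values were seen, Shc1 (0.50) and Map2k1 (0.20) also rose, and Nras (-0.32), Araf (-0.38) and Shoc2 (-0.44) fell. Map2k1 lost its call without WTR- replicate 2 (limma adjusted p = 0.087), WTR- replicate 3 (0.085) or MR13 replicate 3 (0.10). None of the 10 measured p38 and JNK pathway genes rose and 6 fell (median -0.27), against 37.6% called and 20.6% lower over all genes. The falls were led by Mapk13 (-0.59) and Mapk12 (-0.57), which encode p38 isoforms. Map2k6, named after its value was seen, fell by 0.32 but was dim in both groups (4.81 and 4.49). Mapk11, named after its value was seen, fell by 0.22 and lost its call without WTR- replicate 3 (limma adjusted p = 0.057) or MR13 replicate 1 (0.051).

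Upstream of RAS, 5 of 13 growth factor receptors rose and 4 fell (69.2% called, against 37.6% of all genes, median 0.06). Fgfr1 was at 7.10, 7.07 and 7.18 in WTR- and at 9.28, 9.48 and 9.29 in MR13, 4.70-fold higher. Egfr rose by 1.88 and Pdgfra by 1.82, and Erbb3 fell by 2.94. Named after their values were seen, Igf1r (0.44) and Fgfr2 (0.34) rose, and Met (-0.86), Erbb2 (-0.83) and Fgfr3 (-0.20) fell. Of 6 measured EGF-type ligands none rose and 4 fell (66.7% called, against 37.6% of all genes, median -0.66). Those that fell were Epgn (-2.27), Btc (-1.35), Hbegf (-1.12) and, named after its value was seen, Tgfa (-0.20). Areg, the other ligand of the list, had no single-symbol probe set and was not measured. The call of Fgfr3 ended when WTR- replicate 1 or 2, or MR13 replicate 2 or 3, was left out (limma adjusted p up to 0.12), with the replicate number as a block (0.053) and after quantile normalization (-0.15, limma adjusted p = 0.12). That of Tgfa ended when WTR- replicate 2 or 3, or MR13 replicate 1 or 3, was left out (limma adjusted p up to 0.091) and after quantile normalization (-0.14, limma adjusted p = 0.071).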

How the data were processed

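RNA of 3 WTR- and 3 MR13 samples was measured on Affymetrix arrays (Mouse Gene 1.0 ST). The deposited values are on the log2 scale, 1 per probe set, with array medians between 6.57 and 6.62. Tools named in the submitters' processing notes were affy and limma. How background was corrected and probes summarized or normalized is not given in the sources used here, nor are versions. Groups came from the sample titles. Of 28350 probe sets, 21780 had 1 gene symbol, 1618 several and 4952 were unnamed here, and the brightest single-symbol probe set stood for each gene. Groups were compared by limma (version 3.58.1, R 4.3.3) with lmFit and eBayes, two-sided, with Benjamini-Hochberg adjustment over 19933 genes. No set test was run. The fit was tested on simulated data, where it recovered 40% of 1.25-fold, 88% of 1.5-fold and 100% of 2-fold changes. Small differences can thus be missed. No detection calls were used, and the number of arrays limits the precision. Promoter sequences and gene names came from RefSeq (GRCm38.p6).

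The members and gene lists were chosen with earlier results of these data known. Genes named were the members, the called genes of each list with a log2 difference of at least 0.5 in size (at most 6, or 4 for receptors, p38 and JNK and atypical phosphatases) and 17 fixed pathway genes, not all of which are reported here. Others are marked in the text. Alternatives were quantile normalization, centring on array medians, leaving out the dimmest 30% of genes, averaging all probe sets of a gene, a trended and robust prior, the replicate number as a block, the methods' t-test, all probe sets together, and leaving out each array.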

Additional observations from a re-analysis of the deposited data

How the results depend on the processing

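All 10 members kept their direction and their side of the threshold under all 14 alternatives, with 4 higher and 4 lower in each. Dusp1 ranged from 1.16 to 1.28, Spry1 from -1.22 to -1.05 and Dusp6 from -0.09 to -0.02. Genes called over the whole table ranged from 6524 by the methods' t-test (8140 at an unadjusted p under 0.05) to 9172 probe sets. With the replicate block 7442 genes were called, and of the pathway genes Fgfr3 lost its call (limma adjusted p = 0.053). Same-numbered arrays did not deviate together throughout (r = 0.13, -0.0012 and 0.18 for numbers 1, 2 and 3). Between arrays of unlike number r lay between -0.20 and 0.05, so numbers 1 and 3 had the highest values and number 2 did not. The numbers were not taken as pairs in the main fit, and the replicate block was the alternative. Of 61 pathway genes, 11 changed call or direction under some alternative. Genes not called that changed sign were Errfi1 (0.0043) and Etv5 (0.016) after quantile normalization, and, leaving out single arrays, Spry3 (-0.027 to 0.023), Spred3 (-0.010 to 0.070) and Etv5 (-0.095 to 0.0090). Dusp16 passed without the dimmest genes, with the trended prior, by the t-test and without MR13 replicate 2. Etv4, Ier2, Map2k1, Fgfr3 and Tgfa did not pass the t-test, and Fgfr3 (limma adjusted p = 0.12) and Tgfa (0.071) lost their calls after quantile normalization. Averaging probe sets moved Dusp12 from -0.63 to -0.32. The causes were not tested. Background limits differences of dim genes such as Dusp2 and Spry3.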
